A study of Bos taurus with 30 samples.

Results

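The CCAAT/enhancer-binding protein (C/EBP) family was followed here at the level of its transcripts in bovine endometrial cells kept in a microfluidic endometrium-on-a-chip. The members were CEBPA, CEBPB, CEBPD and CEBPG, taken wherever one of these symbols was paired with a row of the 27607 genes counted. Of the 4 listed members 3 had such a row, CEBPB (ENSBTAG00000051972), CEBPD (ENSBTAG00000046307) and CEBPG (ENSBTAG00000017560), and CEBPA was not analysed here. CEBPB was chosen by its measured change between insulin doses in these same libraries. The study listed it for 10 ng/mL against vehicle in epithelial cells and for 10 against 1 ng/mL in stromal cells. Its values in the insulin libraries are therefore given as a description with no test. CEBPB was tested only in the glucose experiment, between glucose levels and between cell types. The deposited annotation types CEBPG as a long non-coding RNA although its symbol is that of a protein-coding gene, so CEBPG values are those of that annotated row and no more.

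C/EBP proteins are basic leucine zipper transcription factors that bind DNA as dimers with each other and with related factors. CEBPB and CEBPD are early-response genes induced by cytokines, hormones and cell stress, and CEBPB is required in uterine stroma for decidualization in the mouse. CEBPG lacks a strong activation domain and acts mainly as a partner, among others of ATF4 in the amino acid response, and insulin signalling can act on C/EBP proteins through phosphorylation, a layer that RNA does not show.

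Epithelial cells were grown in the upper chamber and a stromal-enriched population in the lower chamber. Both were isolated from uteri of cows that were early luteal and not pregnant, and both were exposed to flowing medium for 72 hours. In the glucose experiment (12 libraries) medium held 5 mM or 50 mM glucose. In the insulin experiment (18 libraries) medium held vehicle (acetic acid in phosphate-buffered saline), 1 ng/mL or 10 ng/mL insulin, all at the 5 mM glucose level, and each of the 10 groups had 3 replicates. The labels number the replicates but do not tie them to animals, so p-values measure the spread between these samples.

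Total gene counts were 13493503 to 16647701 per library in the glucose experiment and 8826470 to 13214728 in the insulin experiment, and the lowest count of a family member in any library was 89 (CEBPB, 95% exact Poisson interval 71.5 to 110, counting error only). Levels are given as CPM, counts scaled to library sizes that were TMM-adjusted within an experiment. Summed epithelial markers were 9550 to 19400 CPM in epithelial libraries, and 44.9 to 938 CPM in stromal libraries except the 3 at 50 mM glucose, which held 2160, 1270 and 6870 CPM in replicates 1, 2 and 3. Summed stromal markers were 24600 to 98800 CPM in stromal libraries, lowest in replicate 3 at 50 mM, and 1360 to 7830 CPM in epithelial libraries. EPCAM was at 0 in 5 of 15 stromal libraries and KRT18 in 1, and VIM and COL1A1 were at 0 in no library. In epithelial and stromal libraries respectively, summed leukocyte markers were 157 to 436 and 3.28 to 174 CPM, endothelial markers 27.6 to 104 and 6.48 to 29.6 CPM, and smooth muscle markers 53.5 to 433 and 979 to 4960 CPM. The 5 mM epithelial library of replicate 2 stood apart from its group, with a chi-square per gene of 341 and 340 against the other replicates, which differed from each other by 86.4.

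CEBPB covered the widest range of the family, from 7.81 to 101 CPM over the 30 libraries. Its group means ran from 14.3 ± 3.71 CPM (SD, n = 3) in vehicle-treated epithelial cells to a stromal mean of 63.6 ± 36.8 CPM (SD, n = 3) under 5 mM glucose. In descending order the means were 63.6 CPM in stromal cells at 5 mM glucose, 50.5 CPM in stromal cells at 50 mM, 44.6 CPM in stromal cells at 10 ng/mL insulin, 38.9 CPM in epithelial cells at 5 mM, 36.9 CPM in stromal cells on vehicle, 28.2 CPM in stromal cells at 1 ng/mL, 22.8 CPM in epithelial cells at 10 ng/mL, 17.1 CPM in epithelial cells at 50 mM, 15.0 CPM in epithelial cells at 1 ng/mL and 14.3 CPM in epithelial cells on vehicle. Neighbours in this order overlapped in their libraries except stromal vehicle and stromal 1 ng/mL, whose nearest libraries were at 32.7 and 32.5 CPM. Groups of the glucose and insulin experiments were scaled apart. CEBPD group means lay between 22.9 and 66.0 CPM, and CEBPG group means between 16.4 and 25.4 CPM.

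**Figure D1:**
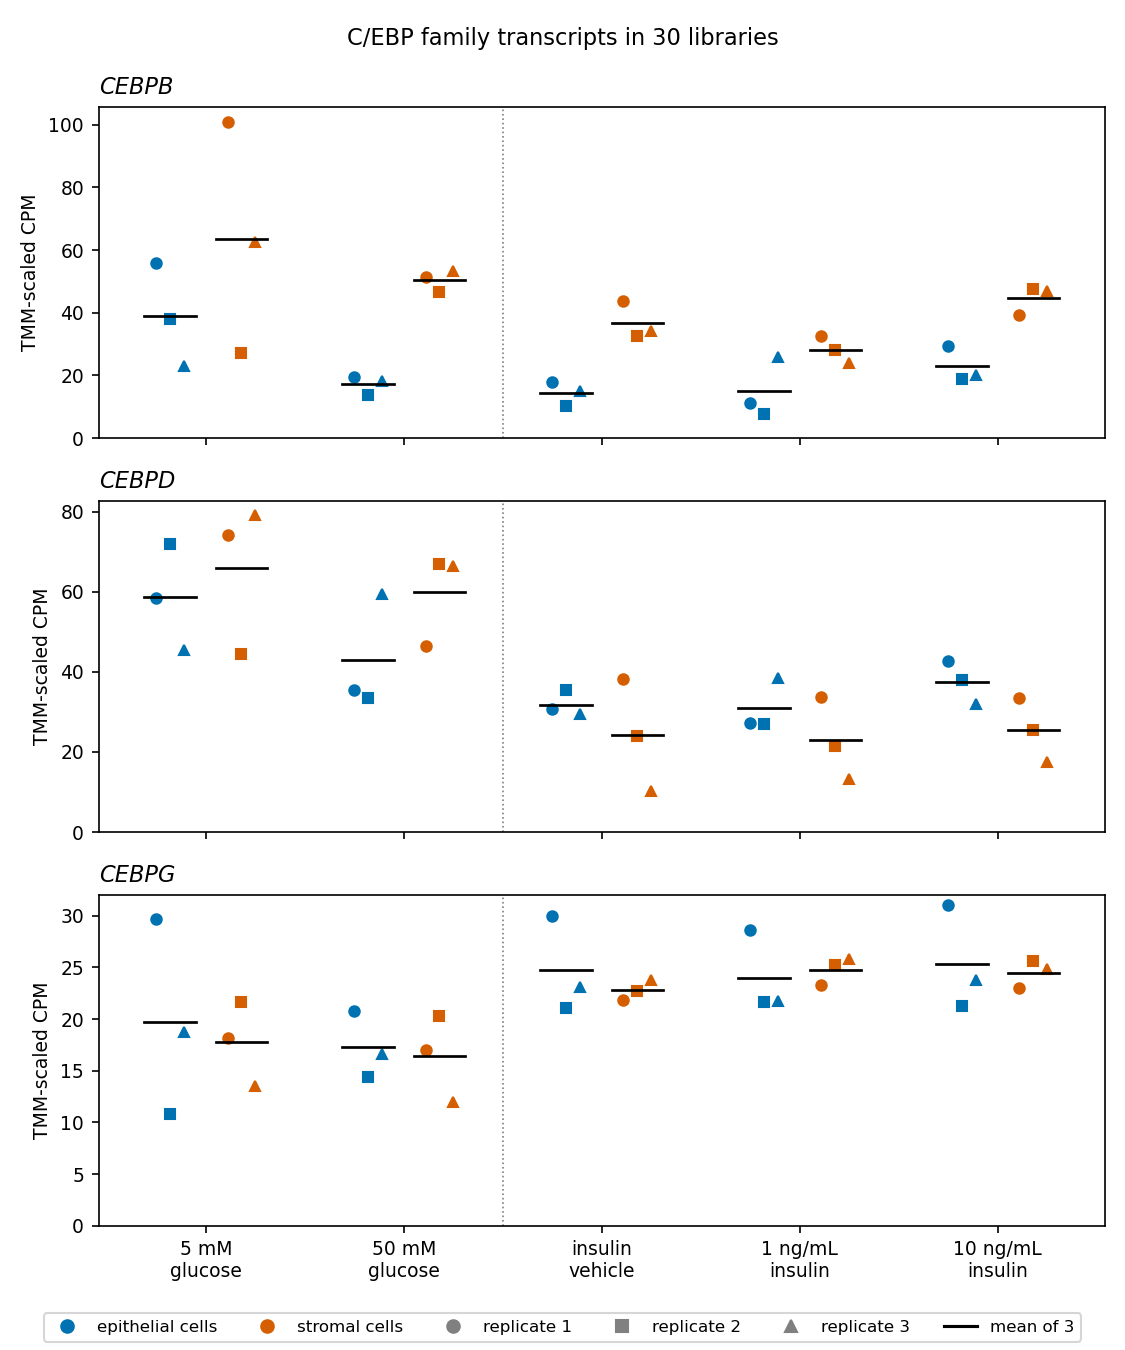
TMM-scaled CPM of CEBPB, CEBPD and CEBPG (y axes, from 0) in each library by condition (x axis). Blue is epithelial and orange stromal, marker shape is the replicate number, bars are means of 3, and the dotted line parts the experiments. CEBPB libraries do not overlap between cell types at 50 mM glucose, on vehicle or at 10 ng/mL insulin. In these conditions edgeR called 17.3%, 55.2% and 54.4% of all genes between cell types, while the share without overlap was not counted. CEBPB was chosen on the insulin libraries. CEBPG stays between 10.8 and 31.0 CPM in all 30 libraries.

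High glucose was compared with the 5 mM control to ask whether it altered the family in either cell type. In epithelial cells CEBPB was 55.8, 38.1 and 22.9 CPM at 5 mM in replicates 1, 2 and 3, and 19.5, 13.8 and 18.1 CPM at 50 mM. All 3 libraries at 50 mM lay below all 3 at 5 mM and each replicate was lower at 50 mM, with the gap narrowest in replicate 3. The share of all genes that separated in this way was not counted. The fitted log2 fold change was -1.13 (standard error 0.33, 95% interval -1.94 to -0.31), with an unadjusted p of 0.0153 and an adjusted p of 0.804 in edgeR's quasi-likelihood test, adjusted by Benjamini-Hochberg over all genes, so the difference did not pass. The p-value ranked 29 among the 13713 genes tested. Calls required an adjusted p below 0.05 together with a log2 fold change beyond 0.1 in either direction, and by this rule 0 genes (0%) were called in epithelial cells, 212 had an unadjusted p below 0.05, and DESeq2 called 0.

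The call of the epithelial comparison depended on replicate 2, which holds the 5 mM library that stood apart over all genes. For CEBPB itself the log2 ratio in replicate 2 was -1.47, beside -1.52 in replicate 1 and -0.34 in replicate 3. Without replicate 2 the CEBPB log2 fold change was smaller, -0.97, but had an adjusted p of 0.0207 in the same edgeR test. That fit held 2 pairs and called 221 of 13906 genes (1.59%), where the main fit called 0. Without replicate 1 the CEBPB value was -0.93 and without replicate 3 it was -1.52, neither called. CEBPB was higher in stromal than in epithelial cells in 13 of 15 library pairs, a count not made over all genes. Summed stromal markers in the epithelial libraries were 5780, 3550 and 2150 CPM at 5 mM and 7830, 6760 and 3100 CPM at 50 mM. These sums were higher at 50 mM in every replicate while CEBPB was lower. Of the 29 stromal markers tested 29 were above 0 at 50 mM, with a median log2 fold change of 0.65 and 0 called, the 8 smooth muscle markers had 5 above 0 and a median of 1.04, and their part in the CEBPB value was not tested. In bulk libraries fewer cells of a type and less RNA per cell cannot be told apart.

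In stromal cells CEBPB did not move one way. It was 101, 27.3 and 62.6 CPM at 5 mM and 51.5, 46.6 and 53.4 CPM at 50 mM, lower in 2 replicates and higher in replicate 2. The groups overlapped, and the 50 mM libraries lay close together inside the wide spread of the 5 mM libraries. The log2 fold change was -0.16 (standard error 0.36, 95% interval -1.14 to 0.82, adjusted p = 0.88, edgeR's quasi-likelihood test), and without replicate 1 it turned to 0.26. Of 13644 genes 0 (0%) were called in stromal cells by edgeR, 664 had an unadjusted p below 0.05, and DESeq2 called 178. The difference between the cell types in the glucose effect on CEBPB was -0.97 on the log2 scale (standard error 0.53, 95% interval -2.2 to 0.25, adjusted p = 0.738, edgeR interaction term), and 0 of 14640 genes (0%) were called for that term, 1102 at an unadjusted p below 0.05 and 250 by DESeq2.

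**Figure D2:**
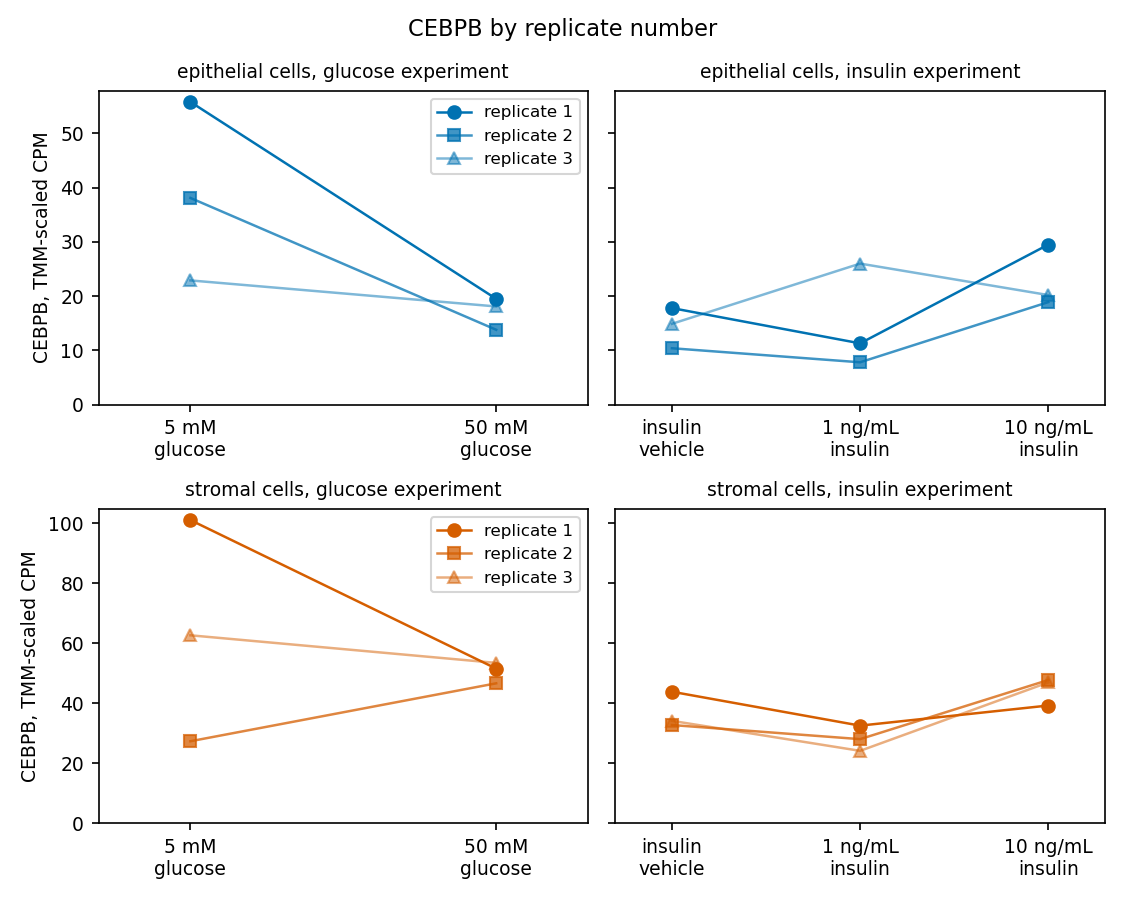
CEBPB in TMM-scaled CPM (y axes, from 0, shared within a row) against glucose or insulin dose (x axis), for epithelial cells (top) and stromal cells (bottom), with 1 line per replicate number. The epithelial glucose lines all run downward, from 55.8, 38.1 and 22.9 CPM to 19.5, 13.8 and 18.1 CPM, whereas the stromal glucose lines cross.

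Across insulin doses CEBPB is described only. Epithelial libraries held 17.8, 10.4 and 14.9 CPM on vehicle, 11.3, 7.81 and 26.0 CPM at 1 ng/mL, and 29.5, 18.9 and 20.2 CPM at 10 ng/mL. All 3 libraries at 10 ng/mL lay above all 3 on vehicle. CEBPB was chosen on this contrast, and the share of all genes without overlap was not counted. At 1 ng/mL replicate 3 lay above its own 10 ng/mL library while replicates 1 and 2 lay below their vehicle libraries. The epithelial log2 fold changes were 0.67 for 10 ng/mL against vehicle, 0.021 for 1 ng/mL against vehicle and 0.64 for 10 against 1 ng/mL, and without replicate 3 the latter pair became -0.56 and 1.34.

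Stromal CEBPB was 43.8, 32.7 and 34.1 CPM on vehicle, 32.5, 28.0 and 24.1 CPM at 1 ng/mL, and 39.2, 47.7 and 46.9 CPM at 10 ng/mL. The 1 ng/mL libraries were the lowest of each replicate and lay below both other doses on this scale. From vehicle they were barely apart, at 32.5 CPM (1 ng/mL, replicate 1, count 346) and 32.7 CPM (vehicle, replicate 2, count 345). The exact Poisson intervals of these counts were 310 to 384 and 310 to 383, so that gap is within counting error. The 10 ng/mL libraries overlapped those on vehicle, and the share of all genes without overlap was not counted. The stromal log2 fold changes were -0.39 for 1 ng/mL against vehicle, 0.27 for 10 ng/mL against vehicle and 0.66 for 10 against 1 ng/mL. Of the 30 epithelial markers only 7 had enough counts to be tested in these stromal cells for 10 against 1 ng/mL. Genes this low can pass the count filter through the group where they are higher, so nothing is read from their direction. All 7 were above 0, with a median log2 fold change of 1.82, and 1 was called, the keratin KRT19 (3.62, adjusted p = 0.0478, edgeR). Summed over the 30 markers, the level was 47.3, 57.3 and 49.1 CPM at 1 ng/mL and 418, 55.7 and 82.9 CPM at 10 ng/mL. It was higher at 10 ng/mL in replicates 1 and 3, and the part of these markers in the CEBPB values was not tested. The comparison of 10 ng/mL with vehicle in epithelial cells, on which CEBPB was chosen, called 16 of 12853 genes (0.124%) with edgeR, 0 with DESeq2, 0 in a single fit of all insulin libraries of the cell type and 13 to 78 with a replicate left out. That of 10 with 1 ng/mL in stromal cells called 4 of 12772 (0.0313%) with edgeR, 3 with DESeq2, 1 with the size factors of DESeq2 in edgeR, 0 in the single fit and 24 to 74 with a replicate left out. Nothing is read from CEBPB being among such genes.

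CEBPB was lower in epithelial than in stromal cells in 13 of 15 library pairs, a count not made over all genes. ATF4 and DDIT3 were also lower in 13 of 15 pairs, and CEBPZ was higher in 13. The pairs share replicate numbers and include the insulin libraries, so the count is not read as a trait of CEBPB. CEBPB was tested between cell types in the glucose experiment only, because the vehicle, 1 ng/mL and 10 ng/mL insulin libraries are those on which it was chosen. At 50 mM glucose the epithelial 19.5, 13.8 and 18.1 CPM stood against the stromal 51.5, 46.6 and 53.4 CPM, without overlap. The log2 fold change was -1.58 (standard error 0.16, 95% interval -1.98 to -1.19, adjusted p = 0.00398, edgeR's quasi-likelihood test). The call was lost without replicate 1, where the value was -1.64 and no gene of 14019 was called. The value was -1.60 and called without replicate 3, whose stromal library held the most epithelial marker RNA.

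At 5 mM glucose the CEBPB difference between cell types did not pass. It was -0.62 on the log2 scale (95% interval -1.74 to 0.50, adjusted p = 0.41, edgeR), with epithelial replicate 2 above its stromal partner, and without replicate 2 it was -1.15 and called. In the insulin experiment, as a description, it was -1.40 on vehicle, -1.07 at 1 ng/mL and -1.01 at 10 ng/mL. The cell types did not overlap on vehicle or at 10 ng/mL, and at 1 ng/mL epithelial replicate 3 lay above its stromal partner.

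These calls are to be read against the share of all genes called between the cell types. The share without overlap was not counted, so lack of overlap is not read as a trait of CEBPB. edgeR called 2944 of 13927 genes (21.1%) at 5 mM glucose, 2397 of 13892 (17.3%) at 50 mM, 7392 of 13395 (55.2%) on vehicle, 7852 of 13334 (58.9%) at 1 ng/mL and 7224 of 13274 (54.4%) at 10 ng/mL. Of the 12 tests of a family member between cell types in libraries that had not chosen it 2 were called, 1 of CEBPB at 50 mM glucose and 1 of CEBPD at 10 ng/mL insulin.

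**Figure D3:**
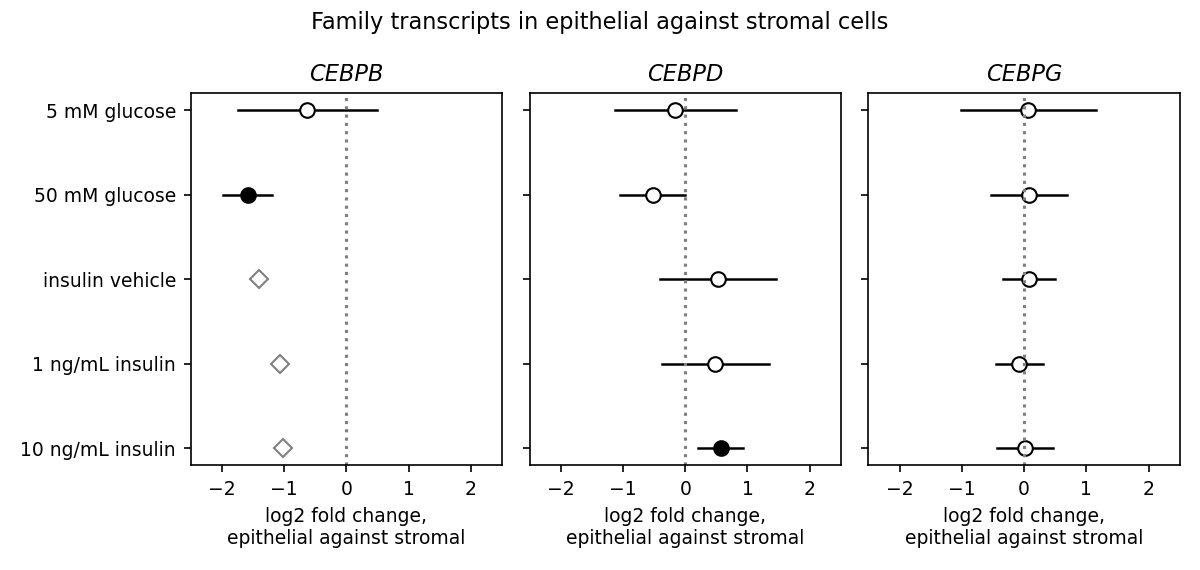
Log2 fold change of CEBPB, CEBPD and CEBPG in epithelial against stromal cells (x axis, below 0 is lower in epithelial cells) in each condition (y axis), with 95% intervals and filled points for calls at adjusted p below 0.05. Grey diamonds are CEBPB in the insulin libraries that chose it, with no test. All 5 CEBPB points lie below 0, from -0.62 to -1.58, and the CEBPG points lie between -0.07 and 0.08.

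CEBPD encodes C/EBP delta, an acute-phase and growth-arrest factor. In epithelial cells CEBPD was 58.5, 72 and 45.4 CPM at 5 mM and 35.4, 33.6 and 59.6 CPM at 50 mM glucose, lower in replicates 1 and 2 and higher in replicate 3. The log2 fold change was -0.50 (standard error 0.35, 95% interval -1.36 to 0.37, adjusted p = 0.804, edgeR). In stromal cells CEBPD was 74.3, 44.5 and 79.3 CPM at 5 mM and 46.5, 66.9 and 66.4 CPM at 50 mM, which overlapped, with a log2 fold change of -0.13 (95% interval -0.86 to 0.61, adjusted p = 0.871, edgeR). CEBPD thus shared with CEBPB the opposite course of stromal replicate 2, the only one of the 3 in which both were higher at 50 mM.

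CEBPD differed little between insulin doses. Epithelial CEBPD was 30.7, 35.4 and 29.4 CPM on vehicle, 27.3, 27.1 and 38.6 CPM at 1 ng/mL and 42.8, 37.9 and 32.1 CPM at 10 ng/mL. The 10 ng/mL library was above vehicle in 3 of 3 replicates but the groups overlapped, and the log2 fold change of 0.25 (standard error 0.078, 95% interval 0.088 to 0.41) had an unadjusted p of 0.00342 and an adjusted p of 0.391 in edgeR. For 10 against 1 ng/mL it was 0.28 (adjusted p = 0.983, edgeR), and without replicate 3, the epithelial replicate with high CEBPD and CEBPB at 1 ng/mL, it was 0.57 (adjusted p = 0.00694, edgeR, 14 genes or 0.109% called). For 1 ng/mL against vehicle it was -0.040 (adjusted p = 1, edgeR). In these epithelial comparisons 0 of 12873 genes (0%) were called for 10 against 1 ng/mL and 0 of 12966 (0%) for 1 ng/mL against vehicle, with 572 and 383 at an unadjusted p below 0.05 and 0 by DESeq2 in each.

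Stromal CEBPD followed the replicate number rather than the dose. It was 38.3, 24.1 and 10.2 CPM on vehicle, 33.8, 21.6 and 13.3 CPM at 1 ng/mL and 33.5, 25.4 and 17.4 CPM at 10 ng/mL. Replicate 1 was the highest and replicate 3 the lowest at every dose, replicate numbers accounted for 89.4% of the variance of log2 CPM and doses for 2.72%. The 3 stromal insulin log2 fold changes lay between -0.047 and 0.17 with adjusted p of 0.991 to 1 in edgeR. Of all genes 2 of 12711 (0.0157%) were called for 1 ng/mL against vehicle in stromal cells and 0 of 12779 (0%) for 10 ng/mL against vehicle, where 356 had an unadjusted p below 0.05 and DESeq2 called 0.

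The cell types differed in CEBPD in 1 of 5 conditions. At 10 ng/mL insulin epithelial cells held more, with a log2 fold change of 0.57 (standard error 0.14, 95% interval 0.21 to 0.93, adjusted p = 0.0229, edgeR), higher in 3 of 3 pairs, although the ranges overlapped. The call was lost without the replicate block (0.53, adjusted p = 0.0924, edgeR) and without replicate 2 or 3 (0.58 and 0.44). In this comparison deviations from group means correlated between same-numbered libraries at r of 0.0665, 0.0858 and 0.141, and 54.4% of all genes were called. On vehicle and at 1 ng/mL the CEBPD log2 fold changes were 0.53 and 0.49 and at 5 and 50 mM glucose -0.16 and -0.52, with adjusted p of 0.138 to 0.818 in edgeR. The sign therefore differed between the experiments, a difference that was not tested. The difference between cell types in the effect of 10 ng/mL insulin was 0.14 for CEBPD (95% interval -0.32 to 0.60, adjusted p = 1, edgeR interaction term), and 0 of 13904 genes (0%) were called for that term, 563 at an unadjusted p below 0.05 and 0 by DESeq2.

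CEBPG encodes C/EBP gamma, the dimer partner without a strong activation domain of its own. Its log2 fold change was called in 0 of 15 comparisons. In epithelial cells it was 29.7, 10.8 and 18.7 CPM at 5 mM and 20.8, 14.4 and 16.6 CPM at 50 mM glucose, and in stromal cells 18.2, 21.6 and 13.5 CPM at 5 mM and 17, 20.3 and 12.0 CPM at 50 mM. Stromal CEBPG was slightly lower at 50 mM in 3 of 3 replicates while the groups overlapped, with a log2 fold change of -0.13 (95% interval -0.43 to 0.17, adjusted p = 0.716, edgeR). The epithelial value was -0.11 (95% interval -0.81 to 0.59, adjusted p = 0.886, edgeR).

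On insulin CEBPG lay between 21.1 and 31.0 CPM in epithelial and between 21.8 and 25.8 CPM in stromal libraries. Epithelial replicate 1 was the highest at each dose, with 30.0, 28.6 and 31.0 CPM, and replicate numbers accounted for 96% of the variance of log2 CPM in epithelial insulin libraries. The 6 insulin log2 fold changes of CEBPG lay between -0.043 and 0.12, and the 95% interval farthest from 0 among them reached 0.29. Between cell types the 5 values lay between -0.074 and 0.083 with adjusted p of 0.677 to 0.951 in edgeR.

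Of the related factors, DDIT3 (C/EBP homologous protein, a stress-induced dimer partner) and ATF4 (the transcription factor of the amino acid response) were measured beside the family, together with CEBPZ, a CCAAT-binding protein outside the leucine zipper family. CEBPE was not analysed here. Epithelial DDIT3 had a mean of 28.7 ± 1.74 CPM under 5 mM and of 21.9 ± 7.83 CPM (SD, n = 3) under 50 mM glucose, lower in 2 of 3 replicates, with a log2 fold change of -0.46 (adjusted p = 0.804, edgeR). Epithelial ATF4 averaged 321 ± 66.7 and 277 ± 29.4 CPM (SD, n = 3), lower in 3 of 3 replicates, with a log2 fold change of -0.21 (adjusted p = 0.804, edgeR). DDIT3 was called once, lower in epithelial than in stromal cells at 1 ng/mL insulin by -0.59 (standard error 0.15, adjusted p = 0.0173, edgeR). In that comparison 7852 of 13334 genes (58.9%) were called. ATF4 was lower in epithelial cells in 13 of 15 pairs and never called, and its log2 fold change at 10 ng/mL against vehicle in epithelial cells, 0.10 and above 0 in 3 of 3 pairs, had an adjusted p of 0.595 in edgeR. CEBPZ was called in no comparison. In RefSeq (ARS-UCD2.0) DDIT3 overlaps MARS1 and CEBPZ overlaps CEBPZOS, and whether reads were assigned by strand is not given in the sources used here.

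Genes around the family were followed in lists, namely other C/EBP genes, leucine zipper partners, regulators, inflammatory and acute-phase targets, amino acid and stress response targets, decidual targets and partners, and adipogenic and metabolic targets. In the 8 comparisons of glucose or insulin doses 0 genes of any list were called. The stress response list lay lowest in epithelial cells at 50 mM glucose, where 5 of its 25 tested genes were above 0 and the median log2 fold change was -0.32, beside a median of 0.0091 over all 13713 genes. Of these 25 genes 5 had an unadjusted p below 0.05. PHGDH, the entry enzyme of serine synthesis, averaged 106 ± 30.2 CPM at 5 mM and 53.5 ± 21.1 CPM at 50 mM (log2 fold change -1.01, standard error 0.26, unadjusted p = 0.00952, adjusted p = 0.804, edgeR), lower in 3 of 3 replicates. SHMT2, a mitochondrial enzyme of the same one-carbon route, averaged 76.8 ± 13.4 and 48.6 ± 8.22 CPM (log2 fold change -0.67, adjusted p = 0.804, edgeR).

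The partner list was also below 0 in that comparison, with 5 of 22 genes above 0 and a median of -0.21, and BATF3 had its smallest p (log2 fold change -1.50, adjusted p = 0.804, edgeR). The inflammatory list had 7 of 18 genes above 0 and a median of -0.12, with TNFAIP3, an inhibitor of NF-kB, at -0.68 and the cytokine LIF at -0.69. The regulators had 21 of 38 above 0 and a median of 0.091, the decidual list 6 of 16 and -0.051, and the metabolic list 4 of 14 and -0.065. In the fit of 2 pairs without replicate 2, which called 85 genes higher and 136 lower (1.59% of those tested), 8 genes of the stress response list were called, all lower at 50 mM, with the amino acid and serine enzymes ASNS, PHGDH, PSAT1, PSPH, SHMT2, MTHFD2 and CTH and the transporter SLC7A5 at -0.43 to -0.99. Also called lower were the inflammatory genes CXCL2, CXCL3, CXCL8, IL1A and PTGS2, at -0.57 to -3.18, and KLF4, SST, DIO2 and PCK2 of the remaining lists. In stromal cells at 50 mM the stress response list had 13 of 25 genes above 0 and a median of 0.012, and CFB of the inflammatory list (log2 fold change 3.06, adjusted p = 0.696, edgeR) lay with the 30 epithelial markers, whose median was 4.41 and of which 30 of 30 were above 0. The part of epithelial RNA in that value was not tested.

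Under insulin the lists lay closer to 0. For 10 ng/mL against vehicle in epithelial cells the stress response list had 19 of 24 genes above 0 and a median of 0.061, beside -0.0037 over all genes, with SESN2, a stress-induced inhibitor of mTORC1 signalling, at 0.17 (adjusted p = 0.458, edgeR). In stromal cells the same comparison had 23 of 25 above 0 and a median of 0.088. ATF5 of the partner list was 0.24 (adjusted p = 0.174, edgeR) and the C/EBP target PTGS2, which makes prostaglandin H, -0.17 (adjusted p = 0.193, edgeR) in epithelial cells at 10 ng/mL. Without replicate 2 SESN2 (0.26) and ATF5 (0.29) were called there, among 78 of 13193 genes (0.591%). Without replicate 1 ATF3, on both the stress response and partner lists, was called lower there (-0.235), among 46 of 13113 genes (0.351%). In the stromal comparison of 10 with 1 ng/mL, in which CEBPB is described above, the partner JUND was 0.29 (unadjusted p = 0.00233, adjusted p = 0.624, edgeR), the progesterone receptor PGR 0.36 (adjusted p = 0.997, edgeR) and CFB 3.26 (adjusted p = 0.272, edgeR). Without replicate 1 JUND (0.40), JUNB (0.211), ALDH1L2 (0.245) and CXCL5 (0.30) were called, among 66 of 12818 genes (0.515%). The part in the CFB value of the epithelial markers, given above for the same comparison, was not tested.

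**Figure D4:**
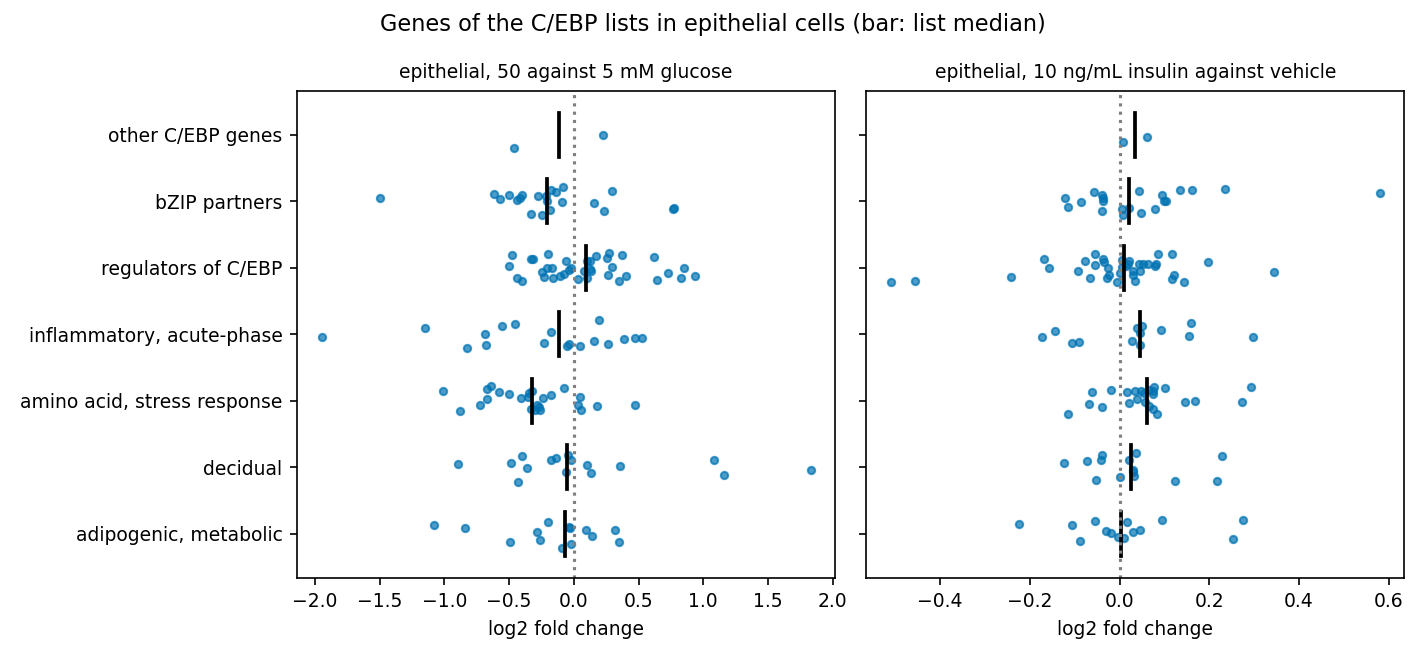
Log2 fold change (x axis, scaled apart in each panel) of each tested gene of the C/EBP lists (y axis) in epithelial cells, at 50 against 5 mM glucose (left) and 10 ng/mL insulin against vehicle (right), with bars at list medians. The amino acid and stress response genes have a median of -0.32 on the left and 0.061 on the right, and no point was called in either panel.

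Between cell types the lists are described on insulin vehicle, where 55.2% of all genes were called. There 10 of 21 partners were called, 4 higher in epithelial cells and 6 lower, among them the stress factor ATF3 (log2 fold change 2.37) and MAF (-4.09). Of the inflammatory targets 7 of 16 were higher and 5 lower in epithelial cells, with the complement gene CFB at 7.41 and the neutrophil chemokine CXCL5 at -6.03. Of the decidual list 9 of 17 were lower in epithelial cells and 3 higher, with the stromal transcription factors HAND2 at -6.50 and HOXA10 at -4.77 and the phosphatase ALPL at 5.78. Of the stress response targets 6 of 25 were higher and 10 lower, with NUPR1 at -4.37 and the cystine transporter SLC7A11 at -2.55, and of the metabolic targets 10 of 16 were higher and 4 lower, with the desaturase SCD at 3.77 and the fatty acid transporter CD36 at -6.37. Of the regulators 12 of 38 were higher and 9 lower, with the prostaglandin receptor PTGER4 at 4.22 and the interleukin receptor IL1R1 at -2.19. Each of these genes had an adjusted p below 0.05 in edgeR.

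Family members were also compared with each other within libraries. On log2(CPM + 1) centred on the mean of each cell type within each experiment, CEBPB and CEBPD had Pearson's r of 0.52 over 30 libraries, 0.70 in the 15 epithelial and 0.44 in the 15 stromal libraries. CEBPG and ATF4 had r of 0.66 over 30, 0.90 in epithelial and 0.072 in stromal libraries. CEBPB and DDIT3 had r of 0.43 in epithelial and -0.60 in stromal libraries. These values describe libraries that share replicates and depth and carry no p.

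The 5 protein-coding genes with the highest r to a member were sought among 10515 genes with a mean of at least 5 CPM. For CEBPB they were SET (0.77), PIM3 (0.73), ZNF703 (0.69), MRPL38 (0.69) and H1FX (0.67). For CEBPD they were NDUFS7 (0.75), EHMT2 (0.73), WDR73 (0.71), DCTN2 (0.70) and RNF181 (0.70). For CEBPG they were MTHFD2 (0.87), SLC35E3 (0.86), CTH (0.85), CEP83 (0.84) and MTMR2 (0.83), and MTHFD2 and CTH are also on the stress response list. The order depended on the cells. In the epithelial or stromal libraries alone, at most 2 of the 5 genes remained among the 5 most like a member.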

How the data were processed

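Libraries were stranded, sequenced as single-end reads, trimmed and filtered by the authors, aligned by them using Rsubread and an Ensembl cow genome with unique alignments kept, and summarized with featureCounts. The deposited values are raw counts per gene in 1 table per experiment. The 13 deposited comparison tables hold the authors' own fold changes and p-values, of which only gene symbols and types were used (symbols for 14951 of 27607 genes).

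The 2 groups of each comparison (6 libraries) were fitted with edgeR 4.0.16 (R 4.3.3; TMM, filterByExpr, quasi-likelihood test, Benjamini-Hochberg over all genes tested), with the replicate number as a block after the paired design of the study. Deviations from group means correlated between same-numbered libraries at r of 0.267 to 0.702 in the glucose and 0.285 to 0.811 in the insulin comparisons, over 0.1 in all pairs, and at 0.0336 to 0.48 between cell types, over 0.1 in 11 of 15. DESeq2 1.42.0 and the alternatives of the closing section were also run.

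The members, lists and tests were chosen with earlier results of these data known. Named genes are the members, DDIT3, CEBPE, CEBPZ and ATF4, and from each list the called genes (if over 6, the 3 largest rises and falls) or at most the 2 with the smallest p. From the vehicle comparison between cell types only some of these are named. List genes called with a replicate left out were named after their values were seen, and not all of them are named. No gene lengths were used, so levels are compared within a gene only. No library was a duplicate (chi-square per gene of 17.3 to 341 between replicates).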

Additional observations from a re-analysis of the deposited data

How the results depend on the processing

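Leaving out 1 replicate gave 0 to 1 called members in the glucose and 0 to 1 in the insulin comparisons in place of 0, from CEBPB without replicate 2 and CEBPD without replicate 3. Between cell types 2 of 12 tests were called, 1 without the replicate block or without replicate 1 or 3, and 2 without replicate 2, with DESeq2, with its size factors or with no filter on low counts. Without the replicate block epithelial CEBPB at 50 against 5 mM glucose was -1.20, no gene was called in any of the 8 dose comparisons, CEBPD between cell types at 10 ng/mL lost its call, 1088 in place of 2397 genes were called between cell types at 50 mM, and the CEBPG difference in the glucose effect turned to -0.0847. With no filter CEBPG between cell types at 10 ng/mL turned to -0.0126, and with DESeq2 CEBPB at 1 ng/mL against vehicle in epithelial cells was -0.0876. Of 132 member values with a replicate left out 22 changed sign, as did 3 of 194 under other settings, and the cause was not tested. With a replicate left out, log2 fold changes at 50 against 5 mM glucose ran from -0.361 to 0.0878 for epithelial CEBPG, from -0.571 to 0.26 for stromal CEBPB and from -0.437 to 0.157 for stromal CEBPD. For CEBPD against vehicle they ran from -0.28 to 0.133 in epithelial and from -0.17 to 0.066 in stromal cells at 1 ng/mL, and from -0.0718 to 0.372 in stromal cells at 10 ng/mL. Between cell types CEBPD ran from -0.575 to 0.167 at 5 mM and from -0.00442 to 0.907 at 1 ng/mL. CEBPG ran from -0.256 to 0.588 at 5 mM, from -0.127 to 0.363 at 50 mM, from -0.116 to 0.189 on vehicle, from -0.252 to 0.0256 at 1 ng/mL and from -0.194 to 0.156 at 10 ng/mL. The difference between cell types in the glucose effect ran from -0.891 to 0.274 for CEBPD and from -0.239 to 0.233 for CEBPG, and that in the effect of 10 ng/mL insulin from -0.208 to 0.374 for CEBPD. Each such fit held 2 pairs, so its spread rests on edgeR's pooling over genes.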

Other observations

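The 5 mM glucose group and the insulin vehicle group had the same nominal glucose but were separate experiments, so no test was made between them. Epithelial CEBPB averaged 38.9 CPM at 5 mM glucose and 14.3 CPM on vehicle, a ratio of 2.72 with no overlap of libraries. Epithelial CEBPD averaged 58.6 and 31.8 CPM and stromal CEBPD 66.0 and 24.2 CPM, again without overlap, whereas stromal CEBPB averaged 63.6 and 36.9 CPM with overlap. CEBPG went the other way, with 19.8 against 24.7 CPM in epithelial cells, with overlap, and 17.8 against 22.8 CPM in stromal cells, without overlap. How many of all genes lacked overlap between the experiments was not counted, so lack of overlap is not read as a trait of any member.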
